A study of Homo sapiens with 4 samples.

Results

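Immunoglobulin variable segments are the gene pieces that encode the antigen-binding end of an antibody chain. They were taken as every transcript cluster of the array with a gene symbol that starts with IGHV, IGKV or IGLV, which gave 104 of the 65528 clusters, or of the 24144 clusters that carry a gene symbol. Of these 104 clusters 43 were of the heavy chain locus (chromosome 14, with 3 displaced copies, or orphons, on chromosomes 16 and 21), 40 of the kappa light chain locus (chromosome 2) and 21 of the lambda light chain locus (chromosome 22). A cluster is the group of probes that the array summarises to 1 value. In all, 101 clusters had a single symbol. The other 3 were shared, namely the IGHV4-28 cluster with LOC642131, a heavy chain cluster of 14 symbols (IGHA2, IGHG1 and other constant, joining and variable segments, 3 of them variable) and a kappa cluster of 14 symbols (IGKC, 5 joining segments and 7 variable segments among them), called the shared IGKC cluster below. RefSeq classes 95 of the clusters as V segments, 4 as V segment pseudogenes and the 3 orphons as pseudogenes, and the 2 clusters of 14 symbols were not classed.

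RNA came from cultures labelled OPM2 and KMS11, names of human multiple myeloma lines, a cancer of antibody-secreting plasma cells. Each line has 1 array of cells given KPT-9274 for 48 h, a small molecule that blocks both PAK4, a signalling kinase, and NAMPT, which recycles NAD. Each line also has 1 array of control cells, for which the labels name no agent and state no time. The 4 arrays are thus OPM2 with KPT-9274, OPM2 control, KMS11 with KPT-9274 and KMS11 control. The labels do not speak of separate cultures, and p-values rest on these 4 arrays alone. The spread they use is how far the treated minus control change differs between the lines, weighed with that of the other clusters. That spread may be technical or a response that differs between the lines, which cannot be told apart.

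In a developing B cell the enzymes RAG1 and RAG2 join 1 variable segment to a joining segment (and, in the heavy chain, a diversity segment between them), and the joined exon is spliced to a constant region. A mature clone therefore makes 1 heavy chain and 1 light chain, either kappa or lambda, and a plasma cell makes them in very large amounts. Promoters of variable segments carry an octamer motif, on which the factors POU2F1 and POU2F2 act with the B lineage coactivator POU2AF1. The kappa locus consists of a proximal copy and an inverted distal copy, whose segments have a D in their names, and segments of a family share much of their sequence. Probes of 1 segment may thus bind the RNA of a relative, which was not tested, so a cluster's signal is not assigned to its named segment alone. In RNA of whole cultures, fewer cells of a type and less RNA per cell cannot be told apart.

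All values are log2 signal, on which 1 unit is a 2-fold difference, and levels are compared between arrays for the same cluster and not between clusters. Background was set on each array at the 95th percentile of 397 olfactory receptor clusters, taken here to stand for unexpressed genes, which was not tested. It was 7.64 on the KPT-9274 OPM2 array, 6.82 on the OPM2 control array, 6.55 on the KPT-9274 KMS11 array and 6.49 on the KMS11 control array. The treated OPM2 array thus read higher at the dim end, and its olfactory receptor clusters had a median change of 0.49, against 0.12 for all clusters with a symbol. Cell type markers went against the KMS11 label. Of 10 plasma cell markers 7 exceeded background in treated OPM2 and 8 in OPM2 control cells, against 4 on each KMS11 array (IRF4, XBP1, JCHAIN and MZB1), where PRDM1, POU2AF1, TNFRSF17 and CD38 did not. SDC1 and SLAMF7 did not on any array. Summed over the plasma cell list, log2 signal was 17.02 and 17.33 in OPM2 and 11.79 and 12.10 on the KMS11 arrays (KPT-9274 first). Of 7 measured erythroid and megakaryocyte markers 0 and 1 lay above background in OPM2 and 6 on each KMS11 array (summed log2 signal 9.32 and 9.15 against 16.59 and 16.45), and of 8 myeloid and mast cell markers 0 and 1 in OPM2 and 5 on each KMS11 array (8.98 and 8.65 against 16.67 and 16.93), GATA1, RHAG, MS4A3 and HDC among them. Of 5 measured B cell markers 0 were above background in OPM2 and 2 on each KMS11 array (CD79A and CD79B), and of 4 T cell markers 0 on any array. These arrays are called KMS11-labelled from here on. The part of the cells' identity in the differences between lines below was not tested.

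The kappa locus held most of the variable segments above background in OPM2. On the treated OPM2 array 21 of 40 kappa, 4 of 43 heavy and 0 of 21 lambda clusters lay above background, 25 in all, where 31.5% of all clusters with a symbol did. On the OPM2 control array the counts were 21 kappa, 8 heavy and 1 lambda, 30 in all, beside 42.9% of all clusters. The kappa count is thus above the share of all clusters on both arrays, while the heavy and lambda counts are below it. On the treated KMS11-labelled array 13 kappa, 7 heavy and 5 lambda clusters were above background, 25 in all, against 45.9% of all clusters, and on the control array 14, 5 and 3, 22 in all, against 47.3%. Every locus there lay below the share of all clusters. As a comparison with variable segments that B lineage cells do not rearrange, 4, 3, 2 and 4 of 72 T cell receptor variable clusters exceeded background on the treated OPM2, OPM2 control, treated KMS11-labelled and KMS11-labelled control arrays.

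**Figure D1:**
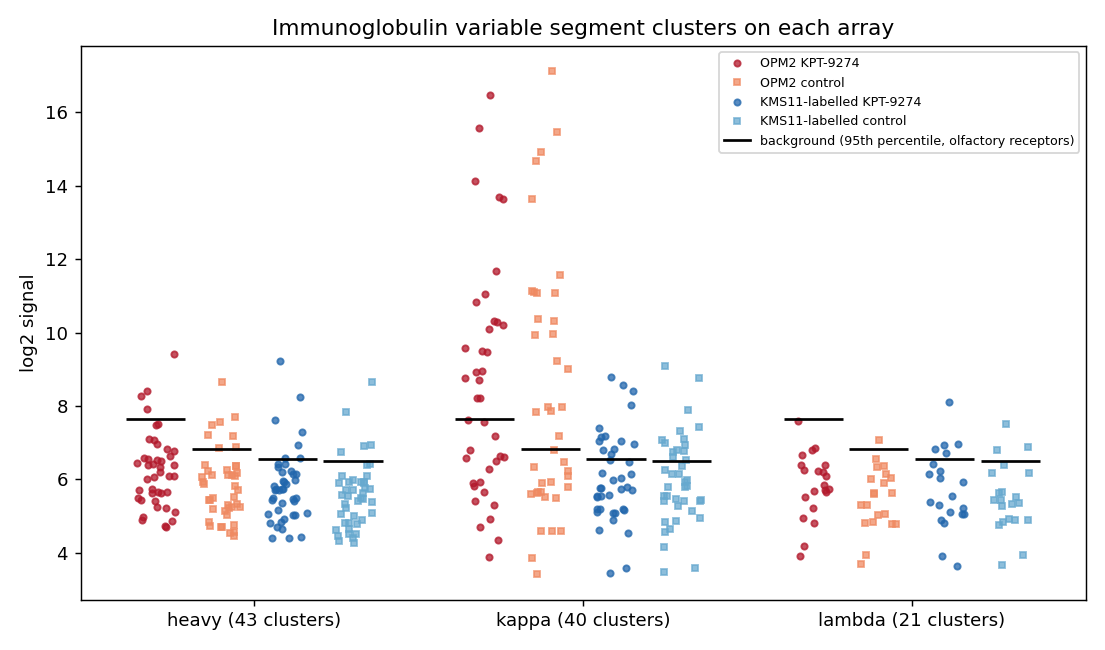
Log2 signal (y axis) of the 43 heavy, 40 kappa and 21 lambda clusters on each array, 1 point a cluster and 1 array a column; black bars mark each array's background. Kappa clusters of the OPM2 arrays reach 16.46 (KPT-9274) and 17.12 (control), while no cluster of the KMS11-labelled arrays exceeds 9.23.

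Most of the clusters were dim throughout. Of the 104, 67 lay above background on 0 arrays (33 heavy, 18 kappa and 16 lambda), the 3 orphons and the heavy chain cluster of 14 symbols among them. The other 37 exceeded it on at least 1 array (10 heavy, 22 kappa and 5 lambda), where 51.3% of all clusters did, and 16 of them on all 4 arrays (12 kappa and 4 heavy), where 30.1% of all clusters did. On both OPM2 arrays and neither KMS11-labelled array 8 clusters were above background, all kappa (6 of IGKV3, IGKV1-5 and IGKV1-27), against 0.961% of all clusters. The reverse held for IGKV1D-8, IGLV3-25 and IGLV3-16, 3 clusters, against 5.65% of all clusters. With background at the 99th percentile of olfactory receptors, 17 kappa clusters stayed above it in treated OPM2 cells and 18 in OPM2 control cells, beside 1 heavy and 0 lambda clusters on each. On each KMS11-labelled array 4 kappa clusters and 1 lambda cluster did, with 3 heavy clusters after treatment and 2 in the control. At that limit 20.9%, 30.6%, 34.2% and 36.9% of all clusters were above background, in the order treated OPM2, OPM2 control, treated KMS11-labelled and KMS11-labelled control.

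The test between the lines set the 2 OPM2 arrays against the 2 KMS11-labelled arrays with the agent as a covariate. Differences are OPM2 minus KMS11-labelled, with the SE of the fit. By limma, at an adjusted p below 0.05 over all 24144 clusters, 19 of the 104 clusters were higher in OPM2, 1 was lower and 84 did not pass. Over all clusters 4.68% were higher in OPM2 and 6.33% lower. All 19 were kappa clusters, of 40, and 0 of 43 heavy and 0 of 21 lambda clusters were higher. The median difference of the values as deposited was 1.04 for kappa, 0.41 for heavy and 0.14 for lambda clusters, against 0.10 for all clusters fitted and 0.34 for the olfactory receptor clusters. After centring on the olfactory receptor clusters these medians were 0.72 for kappa, 0.08 for heavy and -0.19 for lambda clusters, so the heavy and lambda medians depend on the scaling. In the values as deposited, both OPM2 arrays lay above both KMS11-labelled arrays for 65 of the 104 clusters (26 heavy, 32 kappa and 7 lambda). This held for 31.6% of all clusters. They lay below them for 5, against 22.1%. These counts carry the same limit of scaling as the medians.

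Within kappa the calls fell in particular families. All 6 clusters of family IGKV3 and 12 of 18 of family IGKV1 were higher in OPM2, as was the shared IGKC cluster. None of the 15 clusters of families IGKV2, IGKV4, IGKV5 and IGKV6 passed limma's adjusted threshold, while 3 of them, all of IGKV2, were higher at an unadjusted p below 0.05, against 15.3% of all clusters. With each cluster that was under background on both KMS11-labelled arrays but not in OPM2 set at its lower bound, the median difference was 4.15 for IGKV3 (6 of 6 at a bound), 1.79 for IGKV1 (2 of 18) and 0.64 for the 10 IGKV2 clusters (0 at a bound). As deposited the medians were 5.37 for IGKV3 and 1.98 for IGKV1. On all 4 arrays 8 of the 10 IGKV2 and 5 of the 18 IGKV1 clusters were at or below background. These entered the medians with their values as deposited. The IGKV2 median thus rests mostly on dim values, where olfactory receptor clusters themselves had a median difference of 0.34. It was 0.31 after centring on them. The 19 clusters lay above background on both OPM2 arrays, and only 2 further kappa clusters did so, IGKV2-28 and IGKV2D-28.

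**Figure D2:**
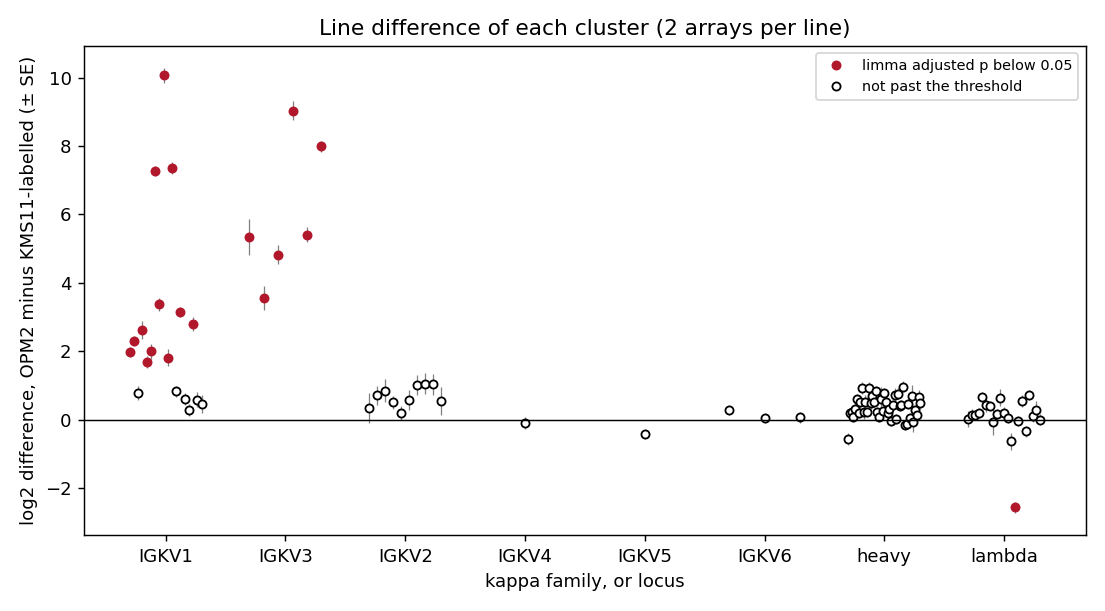
Difference in log2 signal, OPM2 minus KMS11-labelled (y axis, with the SE), for the clusters of the heavy, kappa and lambda loci, the kappa clusters by family (the shared IGKC cluster is not drawn). Differences are of the values as deposited, which for IGKV3 exceed the bounds given in the text. Filled points passed limma's adjusted threshold: 18 clusters of IGKV1 and IGKV3 above 0 and 1 lambda cluster at -2.57.

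The IGKV3 clusters were read in OPM2 alone. None of the 6 lay above background on either KMS11-labelled array, where their highest value was 5.98, and their differences are therefore lower bounds against background. IGKV3D-15 had 13.68 with KPT-9274 and 14.93 in the control in OPM2, against 5.10 and 5.46 on the KMS11-labelled arrays, and was at least 7.78 log2 units higher in OPM2 (adjusted p = 0.00912 by limma on the values as deposited). IGKV3D-7 had 13.65 and 13.63 in OPM2 against 5.52 and 5.79, at least 7.12 higher (limma adjusted p = 0.00848). Its proximal counterpart IGKV3-7 had 9.58 and 11.14 against 5.19 and 4.87, at least 3.84 higher (limma adjusted p = 0.0262). For each of the 3 the OPM2 and KMS11-labelled arrays are far apart and do not overlap, but IGKV3-7 and IGKV3D-15 also differ between the OPM2 arrays by over 1 unit. Of the other IGKV3 clusters IGKV3D-11 was at least 4.46 higher in OPM2 (10.84 and 11.11 against 5.72 and 5.41), IGKV3D-20 at least 3.17 (9.46 and 9.92 against 5.08 and 4.66) and IGKV3-11 at least 2.93 (8.93 and 9.96 against 5.98 and 5.80).

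In the IGKV1 family, IGKV1D-37 had 16.46 with KPT-9274 and 17.12 in the control in OPM2, against 6.69 and 6.77 on the KMS11-labelled arrays, a difference of 10.06 ± 0.21 (limma adjusted p = 0.00848). Its proximal counterpart IGKV1-37 had 14.14 and 14.67 in OPM2 against 6.96 and 7.32, a difference of 7.27 ± 0.15. These paired segments are known as open reading frames for which no functional kappa chain is established. IGKV1D-27, a V segment pseudogene in RefSeq, had 15.57 and 15.45 in OPM2 against 8.40 and 7.89, a difference of 7.37 ± 0.18. Both had a limma adjusted p of 0.00848. So 3 of the 5 kappa clusters with differences or lower bounds above 7 are named for segments that are not known to encode a working chain. Probes may bind the RNA of a relative, so which segments gave the signal of these 3 clusters was not tested. All 3 clusters lay above background on the KMS11-labelled arrays too. There IGKV1D-27 also exceeded the 99th percentile of olfactory receptors (7.54 with KPT-9274 and 7.41 in the control), while IGKV1D-37 and IGKV1-37 did not.

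Of the other 9 IGKV1 clusters that passed, 7 had differences of 1.69 to 3.37 and 2 had only a lower bound. IGKV1D-39 had 10.30 and 10.37 in OPM2 against 7.15 and 6.79 (difference 3.37 ± 0.19, limma adjusted p = 0.0149), and IGKV1D-16 10.10 and 10.31 against 7.04 and 7.08 (3.15 ± 0.15, limma adjusted p = 0.0129). IGKV1D-42 (11.67 and 11.58 against 8.58 and 9.08) and IGKV1-6 (11.05 and 11.07 against 8.80 and 8.75) were 2.80 and 2.29 higher in OPM2, and lay above even the 99th percentile of olfactory receptors on both KMS11-labelled arrays. IGKV1-9 differed by 2.62, IGKV1-27 by at least 1.78, IGKV1-5 by at least 1.52, IGKV1D-33 by 1.81 and IGKV1-17 by 1.69. On the KMS11-labelled arrays IGKV1D-33 had 6.54 and 6.53, beside backgrounds of 6.55 and 6.49. Its difference is thus close to a lower bound. Some of these calls rested on all 4 arrays. IGKV1-17 did not pass without the treated OPM2 array, without the OPM2 control array or without the KMS11-labelled control array, and IGKV1-27, IGKV1-5 and IGKV1D-33 did not pass without the treated OPM2 array. These fits of 3 arrays cannot carry the agent, and assume that the lone array of a line varies like the pair of the other line. Among the 6 IGKV1 clusters that did not pass, 5 were at or below background on all 4 arrays and IGKV1D-8 was above it only on the KMS11-labelled arrays (7.63 and 6.79 in OPM2 against 6.79 and 6.74, the OPM2 values being just under that line's background).

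The shared IGKC cluster, which holds the kappa constant region that every kappa chain carries, had 10.32 and 11.09 in OPM2 against 6.83 and 6.62 on the KMS11-labelled arrays, a difference of 3.98 ± 0.30 (limma adjusted p = 0.0199). It holds 7 variable segments, IGKV3-15, IGKV3-20, IGKV1-39, IGKV1-33, IGKV1-16, IGKV1-12 and IGKV2-30, which have no cluster of their own among the 104.

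Both copies of the kappa locus held called clusters. Of the 16 proximal clusters 8 were higher in OPM2, in 4 stretches of neighbouring clusters of at most 3, and of the 23 distal clusters 10 were, in 6 stretches of at most 3. The called clusters are thus interleaved along the locus with clusters that did not pass, most of these of IGKV2 and IGKV6. For 11 segments both the proximal and the distal member had a cluster. In 4 of these pairs both members were higher in OPM2 (37, 27, 11 and 7 by segment number), in 1 pair only the proximal member passed (IGKV1-17, while IGKV1D-17 lay under background on all 4 arrays), and in 6 neither did. Whether the members of a pair differ was not tested.

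**Figure D3:**
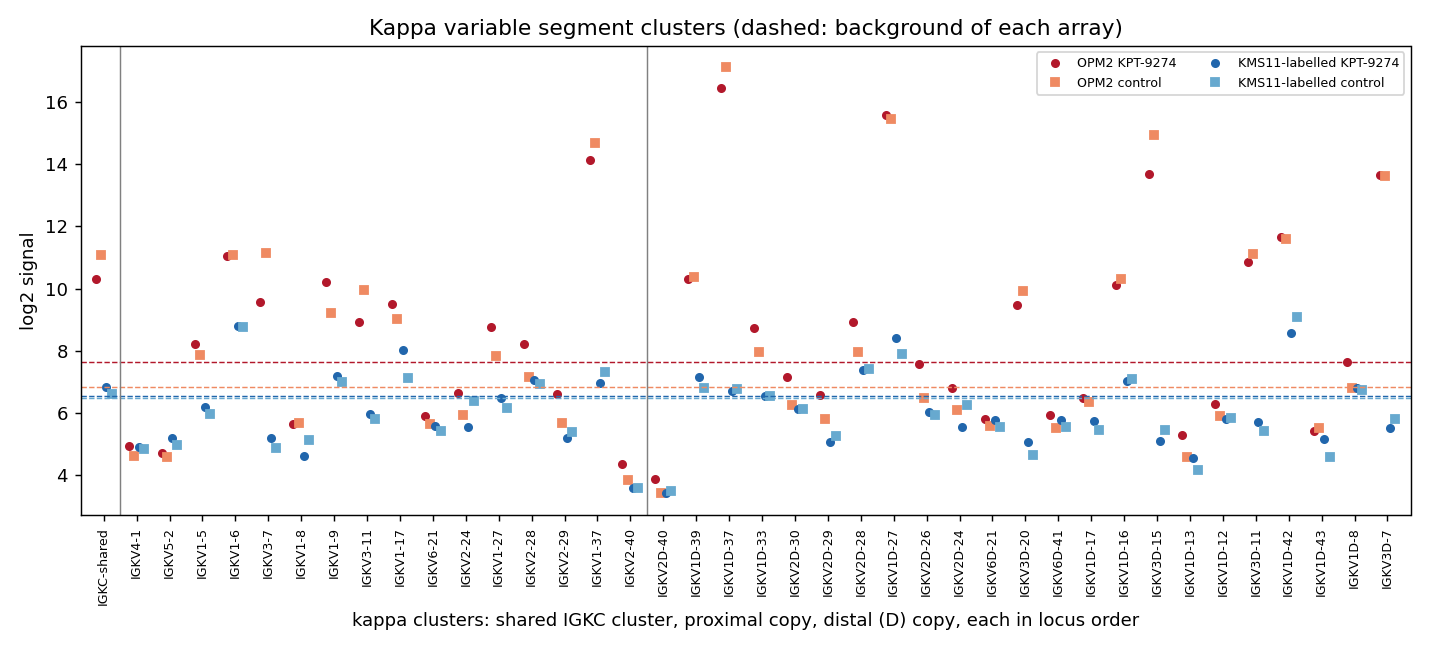
Log2 signal (y axis) of the 40 kappa clusters on each array, with the shared IGKC cluster at the left, then the 16 proximal and the 23 distal clusters in their order along the locus (x axis); dashed lines mark each array's background in the array's colour. The high OPM2 point of IGKV1-37 at 14.67 stands between clusters under background. IGKV1D-37 at 17.12 stands between IGKV1D-39 and IGKV1D-33, which were also higher in OPM2. IGKV3D-15 at 14.93 and IGKV3D-7 at 13.63 have no counterpart on the KMS11-labelled arrays.

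Heavy chain clusters had differences between the lines of -0.57 to 0.96, and none passed limma's adjusted threshold. At an unadjusted p below 0.05, 13 of the 43 were higher and 1 lower in OPM2, against 15.3% and 15.2% of all clusters. Their median of 0.41 is near the 0.34 of the olfactory receptor clusters and was 0.08 after centring on them, as given above. IGHV2-5, above the 99th percentile of olfactory receptors on all 4 arrays, had 9.41 with KPT-9274 and 8.65 in the control in OPM2, against 9.23 and 8.66 on the KMS11-labelled arrays, which overlap fully (difference 0.09 ± 0.15, limma adjusted p = 0.749). IGHV6-1 had 7.47 on both OPM2 arrays, against 8.25 and 7.83 (difference -0.57 ± 0.18, limma adjusted p = 0.155). IGHV3-43 had 8.40 and 7.71 against 7.63 and 6.95 (difference 0.77 ± 0.15, limma adjusted p = 0.0649), where the treated KMS11-labelled array comes close to the OPM2 control array. The remaining named heavy clusters, IGHV3-16, IGHV3-33, IGHV3-53, IGHV4-28, IGHV4-61, IGHV5-78 and IGHV3-35, had values of 5.75 to 8.28 and differences of -0.08 to 0.92.

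Lambda clusters included the 1 segment that passed limma's adjusted threshold as higher on the KMS11-labelled arrays. IGLV3-25 had 5.69 with KPT-9274 and 4.80 in the control in OPM2, both under background, against 8.12 and 7.51 on the KMS11-labelled arrays, both above it. Against the OPM2 background its difference was -0.58 or lower, and limma gave -2.57 ± 0.16 and adjusted p = 0.0167 for the values as deposited. The call did not hold without the treated OPM2 array (adjusted p = 0.0505) or without the OPM2 control array (adjusted p = 0.0747). The other lambda clusters above background anywhere were IGLV9-49 (7.60 and 7.06 in OPM2 against 6.96 and 6.87), IGLV3-16 (6.67 and 6.36 against 6.93 and 6.79), IGLV3-22 and IGLV4-69, with differences of -0.35 to 0.42 that did not pass. Segments of the lambda family IGLV1 were not analysed here, so these 21 clusters are a part of the lambda locus.

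Constant regions were read beside the variable segments. Of the heavy chain constant clusters IGHM had 5.32 and 5.16 in OPM2 against 5.27 and 5.04, IGHA1 6.05 and 5.95 against 6.12 and 5.84 and IGHG4 4.61 and 4.59 against 4.73 and 4.82. The cluster of 14 symbols that holds IGHG1 to IGHG3, IGHD, IGHE and IGHA2 had 6.09 and 5.82 against 5.83 and 5.70. All 4 clusters were below background on each of the 4 arrays, as most heavy variable clusters were, and the shared IGKC cluster was the only constant region cluster that limma called different between the lines. IGLC7, a lambda constant region, had 7.27 on both OPM2 arrays against 8.03 and 7.54, and did not pass (limma adjusted p = 0.199). Other lambda constant regions were not analysed here. Of 16 clusters of joining and diversity segments 10 and 12 exceeded background in treated and control OPM2 cells, and 11 and 10 on the treated and control KMS11-labelled arrays. Of the 16, 3 were higher in OPM2, the shared IGKC cluster, IGHJ5 (below background on all arrays) and IGLJ6 (9.86 and 9.58 against 8.68 and 8.26, limma adjusted p = 0.0336).

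Genes that act on antibody genes and chains were split. POU2AF1, the octamer coactivator, had 9.08 and 10.47 in OPM2 against 5.47 and 5.39, at least 3.26 higher (limma adjusted p = 0.0258), while the octamer factor POU2F2 had 6.41 and 6.07 against 7.46 and 6.82 and did not pass (limma adjusted p = 0.0624). Of 10 genes of antibody assembly and secretion 4 were higher in OPM2 and 6 did not pass. The joining chain JCHAIN (16.88 and 16.99 against 10.68 and 9.94, limma adjusted p = 0.0112), the signal peptidase subunit SEC11C (13.65 and 13.35 against 8.12 and 7.70, limma adjusted p = 0.00848), the plasma cell chaperone MZB1 and the degradation factor DERL3 were those 4. DERL3 had 7.61 and 8.38 in OPM2 against 6.15 and 6.37. It exceeded background only in OPM2 control cells and was at least 1.48 higher in OPM2. The 6 that did not pass were XBP1, PDIA4, SSR4, FKBP11 and the chaperones HSPA5 and HSP90B1, which all cells use. CD79A, the signalling partner of the surface receptor, went the other way, with 6.56 and 6.48 in OPM2 against 9.22 and 9.08, with a difference of -1.92 or lower against background (limma adjusted p = 0.0149). RAG1, RAG2 and the terminal transferase DNTT were below background on all 4 arrays, and of the surrogate light chain genes VPREB1, VPREB3 and IGLL1 none differed past the threshold.

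**Figure D4:**
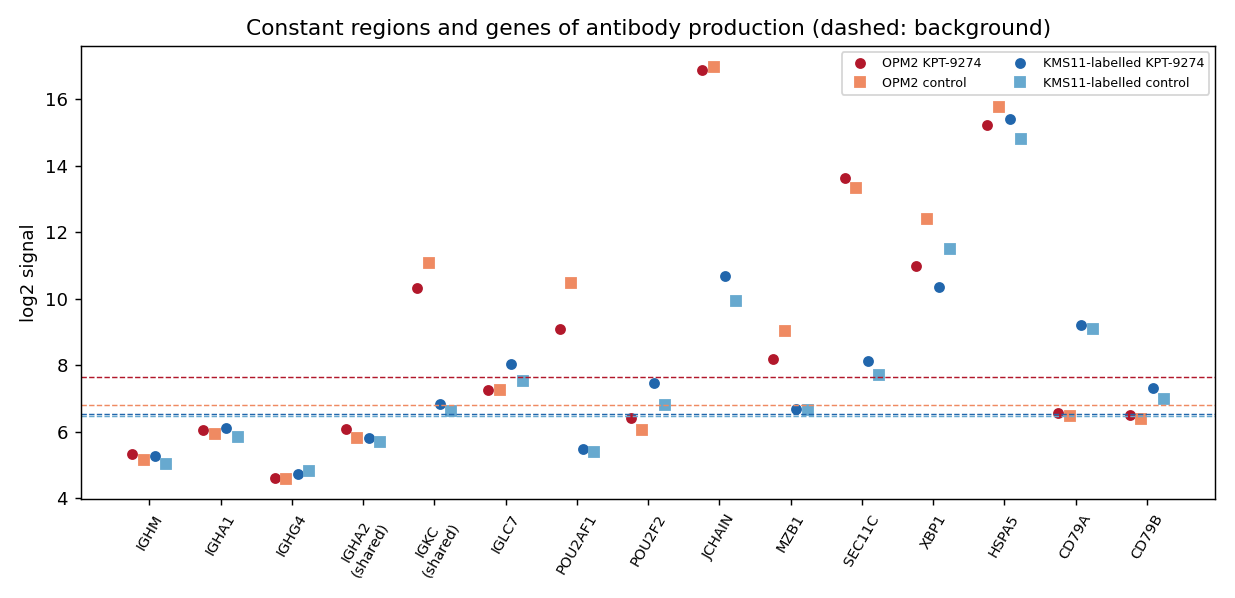
Log2 signal (y axis) of constant regions, octamer factors, secretion genes and receptor partners on each array, with dashed lines at each array's background; IGHA2 and IGKC stand for the clusters of 14 symbols. Heavy chain constant regions lie below background on all 4 arrays, the shared IGKC cluster (10.32 and 11.09 in OPM2), POU2AF1, JCHAIN and SEC11C are higher in OPM2, and CD79A (9.22 and 9.08) is higher on the KMS11-labelled arrays.

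The comparison of treated with control cells asks whether KPT-9274 moved variable segment RNA, with the lines as the replicates. By limma 0 of the 104 clusters were higher and 0 lower after treatment at the adjusted threshold of 0.05, their lowest adjusted p being 0.375, and 0.0% of all clusters were called in either direction. At an unadjusted p below 0.05, 14 clusters were higher (6 heavy, 2 kappa and 6 lambda) and 0 lower, against 4.69% of all clusters higher and 7.22% lower. Of these 14, IGHV2-5, IGHV3-33, IGHV3-43 and IGKV1-17 were above background on all 4 arrays. The dim end of the treated OPM2 array was raised as given above, and its part in these values was not tested.

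Changes with treatment within a line were also read. A change is the treated minus the control array of 1 line, has no replicate, and was read only where both arrays were above background, or 1 was above the other's background. That left 25 clusters in OPM2, 21 kappa and 4 heavy, each above background on both arrays. Of the 25, 3 were at least 2-fold lower and 1 at least 2-fold higher, against 8.94% and 4.1% of all clusters that could be read. The 3 lower ones were of IGKV3, IGKV3-7 with a change of -1.56, IGKV3D-15 with -1.25 and IGKV3-11 with -1.03. IGKV3D-20 had -0.46, IGKV3D-11 -0.27 and IGKV3D-7 0.02, so 5 of the 6 IGKV3 clusters had values below 0 (median -0.74), where 64.3% of all clusters above background on both OPM2 arrays did. The shared IGKC cluster had -0.77. The 12 IGKV1 clusters had values on both sides of 0 (7 above and 5 below, median 0.10, but 4 above and 8 below, median -0.34, after olfactory receptor centring), with -0.66 for IGKV1D-37 and -0.53 for IGKV1-37 at one end and 0.98 for IGKV1-9 and 0.93 for IGKV1-27 at the other. IGKV2-28 (1.05) and IGKV2D-28 (0.98) and the heavy clusters IGHV2-5, IGHV3-33, IGHV3-53 and IGHV3-43 (0.69 to 0.76) had values above 0, on arrays between which background itself differed by 0.82. POU2AF1 had a change of -1.39 and JCHAIN of -0.11 on the same arrays.

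Within the KMS11-labelled arrays 0 of 25 readable clusters were at least 2-fold higher or lower, against 2.31% and 6.5% of all readable clusters. Changes ran from -0.50 for IGKV1D-42 to 0.92 for IGKV1-17. IGLV3-25 had 0.61, IGHV3-43 0.68, IGHV2-5 0.57 and IGKV1D-27 0.51, while IGKV1-37 had -0.36, IGKV1D-37 -0.08 and IGKV1D-16 -0.04. Of the 21 clusters above background on both arrays 16 had values above 0 and 5 below, but 14 and 7 after median centring, where as deposited 53.6% of all clusters above background on both arrays were below 0. The other 4 of the 25 were above background on the treated array alone, which fixes their sign. IGKV3 could not be read there, and whether the treatment acts differently in the lines could not be tested, since the fit's only residual degree of freedom is that difference.

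**Figure D5:**
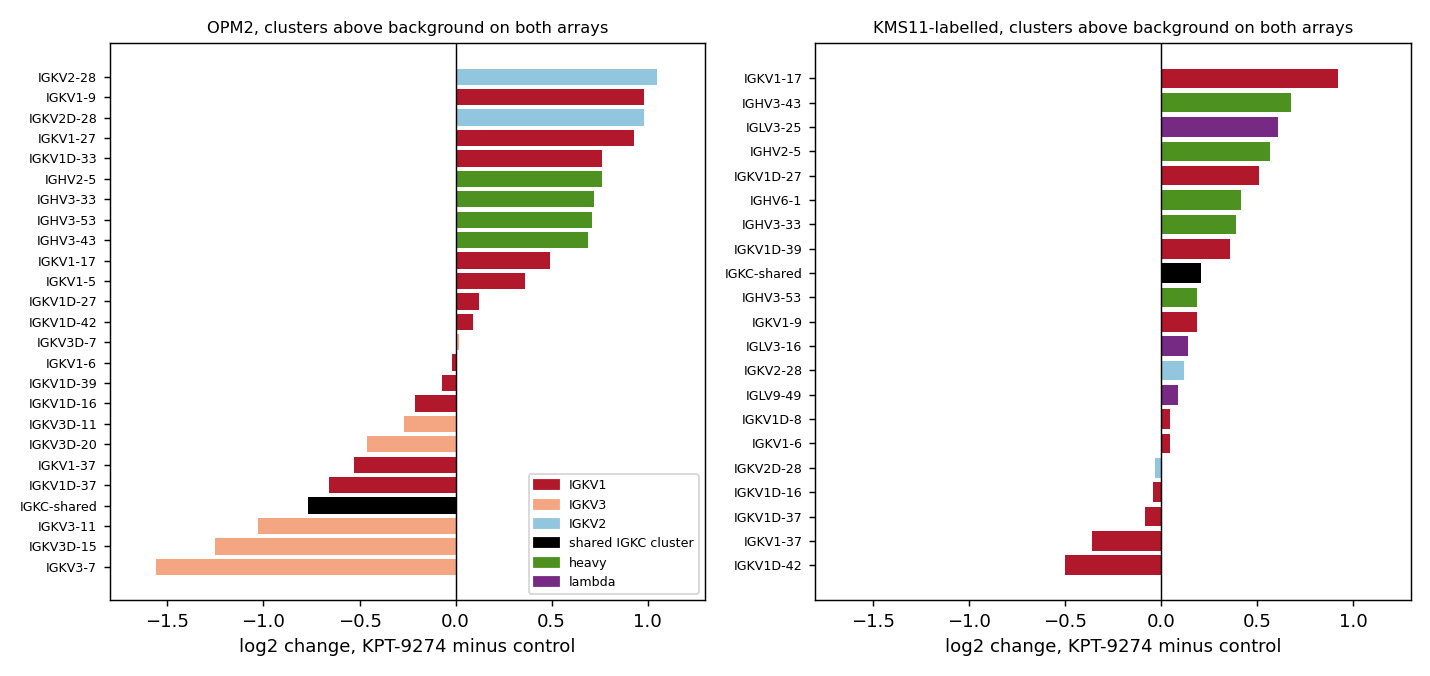
Log2 change, KPT-9274 minus control (x axis), of each variable segment cluster above background on both arrays of a line, in OPM2 (left) and the KMS11-labelled line (right), coloured by family or locus; 1 array a condition, so no error can be given. In OPM2 the lowest bars are IGKV3-7 (-1.56), IGKV3D-15 (-1.25) and IGKV3-11 (-1.03), and in the KMS11-labelled line all bars lie between -0.50 and 0.92.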

How the data were processed

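The deposited table holds log2 signal values that the authors deposited, made, per the submitters' processing notes, with software named Transcriptome Analysis Console. How probes were summarised and arrays normalized was not given in the sources used here, nor was the build. Its 4 value columns each belong to a labelled sample, and 0 were left aside. Clusters were named from a table of the array's annotation, and RefSeq genes of assembly GRCh38.p14 served for names, class, chromosome and neighbour order alone (102 of 102 clusters with 1 variable segment matched by symbol). The values were analysed as deposited, without a filter on low values, with limma 3.58.1 in R 4.3.3. A linear model with line and agent was fitted to 24144 clusters (lmFit, eBayes, 1 residual and 2.41 prior degrees of freedom), two-sided, with Benjamini-Hochberg adjustment at 0.05. The fit was also run on simulated data whose noise was drawn from its own prior. Such a run cannot show how well the model suits these arrays. Treated and control arrays of a line served as its 2 arrays.

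Named clusters were taken from those above background on at least 1 array: per locus up to 10 with the largest line difference and up to 5 above background on both KMS11-labelled arrays, and up to 5 each way by change within a line (33 in all). Other clusters that passed are also named. Members, lists and tests were chosen with earlier results of these data known. The number of arrays limits the precision. Alternatives were other scalings, filters, priors, covariates and backgrounds, and leaving out each array.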

Additional observations from a re-analysis of the deposited data

Results flagged for a closer look

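For 5 of the 16 variable segment clusters that lay above background on all 4 arrays, the treated minus control change had opposite signs in the 2 lines. The share over all clusters was not computed, so the count is not read as a result. Signs of change also depend on the scaling. Of the 25 variable segment clusters above background on both OPM2 arrays, 14 had changes above 0 as deposited and 11 after median centring. With 1 array a condition the difference between the lines was not tested. The shared IGKC cluster had -0.77 in OPM2 and 0.21 on the KMS11-labelled arrays. IGKV2D-28 had 0.98 in OPM2 and -0.03 on the KMS11-labelled arrays. IGKV1D-42 had 0.09 in OPM2 and -0.50 on the KMS11-labelled arrays. IGKV1D-39 had -0.07 in OPM2 and 0.36 on the KMS11-labelled arrays. IGKV1-6 had -0.02 in OPM2 and 0.05 on the KMS11-labelled arrays.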

How the results depend on the processing

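The 19 kappa clusters that were higher in OPM2 stayed the same 19 under quantile normalization, median centring, cyclic loess, centring on olfactory receptor clusters (added after seeing the data) and without the agent covariate. The count was 20 with the lowest 25% of clusters left out, which added IGHV3-66, a heavy cluster. It was 24 with a trended and robust prior, which added IGHV3-66, IGKV1-8, IGKV1D-17, IGLV10-54 and IGLV3-12. The count was 16 with all clusters of the array in the fit, which both adjusts over more clusters and takes its prior from them. Without each array in turn it ran from 15 to 19, and the count lower in OPM2 from 0 to 1. That count was 3 after olfactory receptor centring, with IGHV6-1 (limma adjusted p = 0.0282) and IGLV3-27 added. The p-values of that centred fit cannot be set beside those of the main fit. For IGKV1D-37 it gave a difference of 9.74 with a limma adjusted p of 6.67e-190, against 10.06 and 0.00848 in the main fit. Calls that appear only after this centring are therefore not read as results. For the treatment, leaving out an array leaves no residual degree of freedom and was not run. There limma called 0 clusters in each direction under the other scalings, filters and priors and without the line block. The exception was olfactory receptor centring, whose p-values carry the limit just given. It gave 1 lower cluster, IGKV3D-15 (-1.07, limma adjusted p = 0.023), beside 5.52% of all clusters. With the 99th percentile as background 19 clusters in OPM2 control cells were above it, and 8 on the treated and 7 on the control KMS11-labelled array. The count at least 2-fold higher in OPM2 was 3 under quantile normalization and with no floor at background, and 0 under median centring, cyclic loess and olfactory receptor centring. The count at least 2-fold lower in OPM2 was 5 after olfactory receptor centring. In the KMS11-labelled line it was 1 higher under quantile normalization and with no floor. Signs turned only for 5 named clusters that did not pass. They were IGHV2-5 (-0.11 under median centring, -0.24 after olfactory receptor centring, -0.29 to 0.47 without each array), IGHV3-35 (-0.12, -0.12, -0.13 and -0.26 under quantile normalization, median centring, cyclic loess and olfactory receptor centring, and -0.25 to 0.39 without each array), IGLV4-69 (-0.19, -0.17, -0.19 and -0.31, and -0.50 to 0.55), IGHV5-78 (-0.49 to 0.35 without each array) and IGLV3-22 (-0.27 to 0.21). The cause was not tested. The labels give no replicate numbers, and the treatment fit already pairs the arrays of a line.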

Other observations

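Among the T cell receptor variable segments, which served above as a second set of rearranging genes, 4 of 72 clusters were higher in OPM2 by limma, beside 4.68% of all clusters, so the count is near that share. All 4 were of the gamma locus: TRGV3, TRGV5, TRGV2 and TRGV4. They were 4 of the 7 gamma clusters with a single symbol, and 0 of the other 65 clusters passed. TRGV3 had 7.87 with KPT-9274 and 8.11 in the control in OPM2, against 5.38 and 5.43 on the KMS11-labelled arrays and was at least 1.47 higher (limma adjusted p = 0.0157). TRGV5 had 7.29 and 7.85 in OPM2 against 5.70 and 5.34, was at least 1.05 higher (limma adjusted p = 0.0416), and exceeded background only in OPM2 control cells. TRGV2 and TRGV4 were below background on all 4 arrays. The T cell markers CD3D, CD3E, CD3G and CD2 were below background on all 4 arrays. These segments were singled out after their values were seen.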
